A study of Saccharomyces cerevisiae with 4 samples.

Results

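Mitochondrial ribosomal protein genes were followed across a map of meiotic DNA breaks in budding yeast, in the gap before each gene, in its open reading frame (ORF) and in the gap after it. They were picked by symbol as every gene of the gene table that starts with MRPL, MRPS or RSM, and no measured value entered the choice. The rule gave 49 genes on 13 chromosomes, out of 5684 nuclear protein-coding genes on the 15 chromosomes used. A further 5 genes with such symbols (MRPL38, RSM22, MRPL31, MRPL13 and MRPL20) lie on chromosome XI, which the rule leaves out. By their names, 30 of the 49 encode proteins of the large subunit (MRPL) and 19 encode proteins of the small subunit (MRPS and RSM).

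Mitochondrial ribosomes translate the few messages encoded by mitochondrial DNA, mostly core subunits of the respiratory chain and the ATP synthase. Nearly all of their proteins are made from nuclear genes, translated in the cytosol and imported. Some descend from bacterial ribosomal proteins and others have no bacterial counterpart; the systematic names in the gene table mark 32 of the 49 as the first kind and 17 as the second. Sporulating yeast cells depend on respiration, and budding yeast meiotic breaks fall mostly in the nucleosome-poor DNA of promoters.

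The breaks are made by Spo11, which cuts both strands and is released from the ends with a short piece of DNA attached. Sequencing these Spo11 oligos places each cut at the 5′ end of a read. All 4 datasets came from 1 diploid strain of the SK1 background, MATα/MATa and homozygous for every allele that follows. It carries SPO11-HA3-His6::kanMX, the tagged protein that allows the oligos to be purified, and nuc1∆::LEU2, which removes a mitochondrial nuclease. Its marker alleles are arg4-Nsp, his4X::LEU2, ura3, lys2, leu2::hisG and ho::LYS2. No untagged or break-deficient cells were analysed here. Cells were collected after 4 h in sporulation medium at 30 °C. Culture 1 gave datasets 1A, 1B and 1C, of which 1B is a second PCR from the ligation of 1A and 1C a separate ligation of the same oligos, and a separate culture gave dataset 2.

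The deposited read list pools the 4 datasets and held 2024944 reads. Read names show 4 sequencing runs of 395612 to 587674 reads, and no label ties a run to a culture, so values per run show the spread between runs and are not replicates. Levels are given as RPM, oligos per 1000000 reads of the list or of the run. Intervals are 95% intervals. Those on levels treat every read as an independent count and leave out the spread between runs. PCR copies carry no molecular identifier, so these intervals can be too narrow. Wilson intervals on hotspot shares take the gene as the unit and do not measure counting error of reads. With 1 strain, 1 time and no column per dataset, no test over samples exists, and the genes are set beside all 5684 genes (the 49 included) by counts and medians.

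The 49 genes and their gaps drew 21532 oligos, 1.06% of the list. Of these, 15938 (74.0%) lay in 5′ gaps, the stretch between a gene's start and the nearest protein-coding neighbour, which hold the promoters. The ORFs drew 806 oligos (3.74%) and the 3′ gaps 4788 (22.2%). By length the 5′ gaps were 29.9%, the ORFs 48.0% and the 3′ gaps 22.1% of the sequence counted. Breaks around these genes thus lay mainly before the genes. The same held over all genes, whose 5′ gaps held 1603238 reads and whose ORFs held 267504. In each of the 47 genes that have a 5′ gap it held more oligos than the ORF, while among all genes 8.76% had more in the ORF. These are counts over whole regions, and the ORFs were shorter here, with a median of 714 bp against 1197 bp in all genes. MRPL19 and MRPL51 overlap their upstream neighbour and have no 5′ gap.

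A hotspot, here a stretch where the smoothed oligo density reached 2.3 times the genome mean, had its summit in or nearest to the 5′ gap of 36 of the 47 genes (76.6%, Wilson interval 62.8% to 86.4%). Among all genes with a 5′ gap, the 47 included, the share was 73.6%. The 47 are the whole set picked by symbol and not random draws, so the interval is a description and no test. Where the 5′ gap is divergent, shared with a neighbour that starts on the other side, 22 of 26 genes had a hotspot, against 81.1% of all divergent gaps. Where it is tandem, following the end of a neighbour, 14 of 21 had one, against 65.5% of all tandem gaps.

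The median 5′ gap level was 97.3 RPM in the mitochondrial ribosomal protein genes (middle 50% of genes 43.7 to 159.5) and 93.3 RPM in all genes (30.1 to 234.8). Their 5′ gaps were shorter, with a median of 322 bp against 452 bp in all genes, and per kb the medians were 247 and 199 RPM. By the quartiles of all genes, 8 of the 47 lay below 30.1 RPM, 14 between that and 93.3 RPM, 20 from there to 234.8 RPM, and 5 at or above 234.8 RPM, where 25% of all genes lie. The genes thus sat mostly in the middle of the range, and few reached its top. In divergent gaps the medians were 125.9 RPM in these genes and 139.3 RPM in all genes, and in tandem gaps 47.4 and 62.2 RPM. A divergent gap belongs to both flanking genes, and its oligos cannot be assigned to either.

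**Figure D1:**
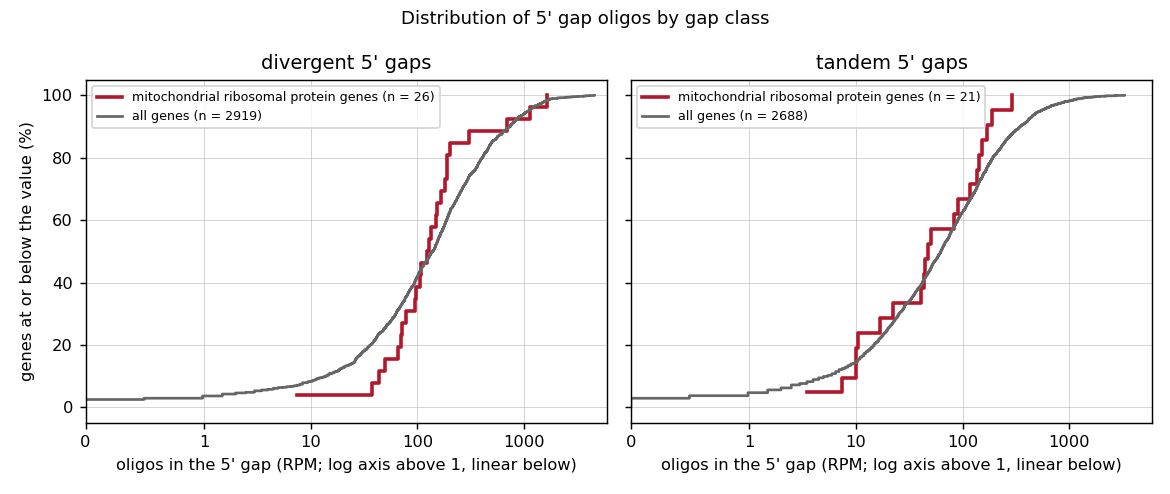
Share of genes at or below each 5′ gap level, for mitochondrial ribosomal protein genes (red) and all genes (grey), in divergent gaps (left) and tandem gaps (right); the x axis is oligos in RPM, logarithmic above 1. The red curves start to the right of the grey ones, since no mitochondrial ribosomal protein gene lies under 3.46 RPM. They end earlier, at 1632 RPM in divergent gaps and 287 RPM in tandem gaps. The red curves hold 26 and 21 genes and the grey ones 2919 and 2688, so their ends are not comparable.

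Among small-subunit genes 17 of 19 had a 5′ hotspot (89.5%, Wilson interval 68.6% to 97.1%), and among large-subunit genes with a 5′ gap 19 of 28 (67.9%, 49.3% to 82.1%). The intervals overlap. Median 5′ gap levels were 105.7 RPM for the small subunit and 92.8 RPM for the large subunit. By descent, 25 of 31 genes with a bacterial counterpart had a hotspot with a median level of 105.7 RPM, and 11 of 16 genes without one had a hotspot with a median of 84.2 RPM. None of these groupings was tested.

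The levels spread widely, and 3 gaps held 7007 of the 15938 5′ gap oligos (44.0%). The highest 8 held 58.9%, and no such shares are given here for all genes. The size of these gaps depends on how repeated reads at the same position are counted. With each position and strand counted once, and RPM taken over such positions, RSM7 had 1040 RPM, MRPL8 396 RPM and MRPL28 264 RPM. MRPL28 then lay below MRPL15 with 285 RPM. This count has a ceiling of 1 per position and strand, so it compresses strong, short gaps such as the 247 bp of MRPL8. It does not measure how far repeats raised the levels. Whether the repeats are PCR copies or separate cuts cannot be told apart.

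**Figure D2:**
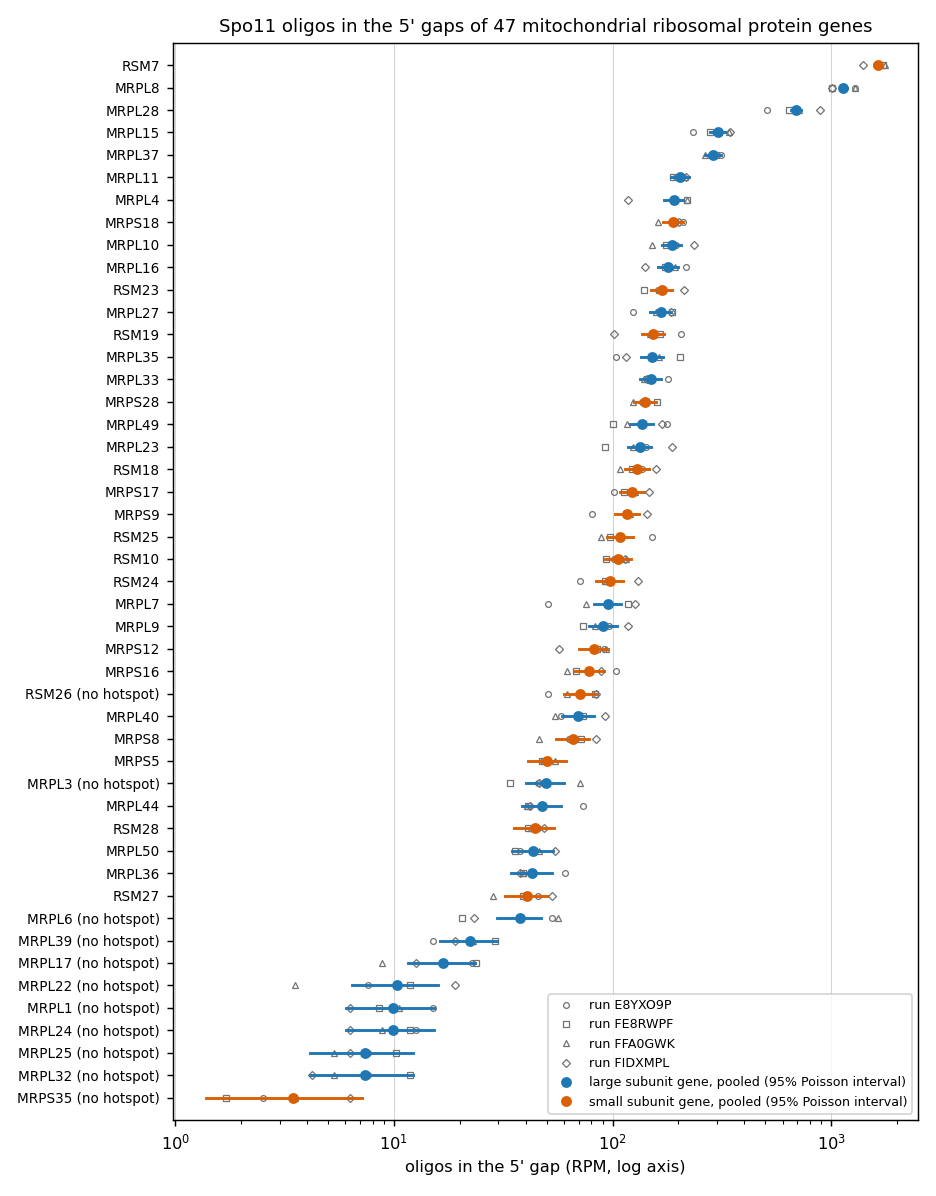
Oligos in the 5′ gap of the 47 mitochondrial ribosomal protein genes that have one, in RPM on a log axis, sorted from high to low. Filled points are the pooled value with its 95% Poisson interval (blue large subunit, orange small subunit), and open symbols are the 4 runs. With every read counted RSM7, MRPL8 and MRPL28 stand above the rest at 692 RPM or more, and most genes lie between 40 and 200 RPM. With each position counted once, a count with a ceiling set by gap length, MRPL28 has 264 RPM and does not stand apart.

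In the small subunit the highest gap was that of RSM7, which encodes the counterpart of the bacterial small-subunit head protein S7. Its 966 bp divergent gap, shared with the uncharacterised gene YJR115W, held 3304 oligos or 1632 RPM (exact Poisson interval 1576 to 1688). The runs E8YXO9P, FE8RWPF, FFA0GWK and FIDXMPL gave 1605, 1722, 1752 and 1399 RPM. FIDXMPL was the lowest, and all 4 values lay above the highest run of any other gene of the group. The hotspot covers 1039 bp in the map's coordinates (chromosome X, 638977 to 640015) and ranks 53 of 3626 hotspots. Breaks were scattered across the gap rather than gathered at one place: the richest 100 bp held 25.2% of its oligos, the most frequent position 3.39%, and the side of the gap nearer to RSM7 50.6%. The summit lay 864 bp from the start of RSM7, towards the neighbour.

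MRPS18 was the other small-subunit gene among the highest 8, with 189 RPM in a gap shared with MCK1, a protein kinase gene. It encodes the counterpart of the bacterial platform protein S11. Run values were 209.8, 192.3, 160.7 and 202.0 RPM in the same run order, with FFA0GWK lowest.

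In the large subunit MRPL8, the counterpart of bacterial L17, had the highest 5′ gap level. Its gap of 247 bp is shared with COA3, a cytochrome c oxidase assembly gene, and held 2302 oligos or 1137 RPM (1091 to 1184). Run values were 1287 RPM in E8YXO9P, 1002 in FE8RWPF, 1282 in FFA0GWK and 1006 in FIDXMPL, so that 2 runs were high and 2 were lower. The hotspot called there spans 1232 bp (chromosome X, 316030 to 317261), holds 3258 oligos and ranks 57. Its extent takes in stretches with few oligos that the 200 bp joining rule bridges, and no other joining distance was run. It is the widest of the hotspots in these 5′ gaps and reaches past the gap on both sides, as the plot of breaks around the 4 highest genes shows. The richest 100 bp held 67.9% of the gap's oligos and a single position held 346 of the 2302.

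MRPL28, a large-subunit gene with no bacterial counterpart, had 1401 oligos or 692 RPM (656 to 729) in a 306 bp divergent gap shared with CMI8. Run values were 508, 640, 708 and 890 RPM in E8YXO9P, FE8RWPF, FFA0GWK and FIDXMPL. Here FIDXMPL was the highest run, where it was the lowest for RSM7. The gap's hotspot spans 275 bp (chromosome IV, 1385761 to 1386035), wider than the 205 bp median of the hotspots in these 5′ gaps. The richest 100 bp of the gap held 84.4% of its oligos, and 26.7% lay on the side nearer to MRPL28.

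**Figure D3:**
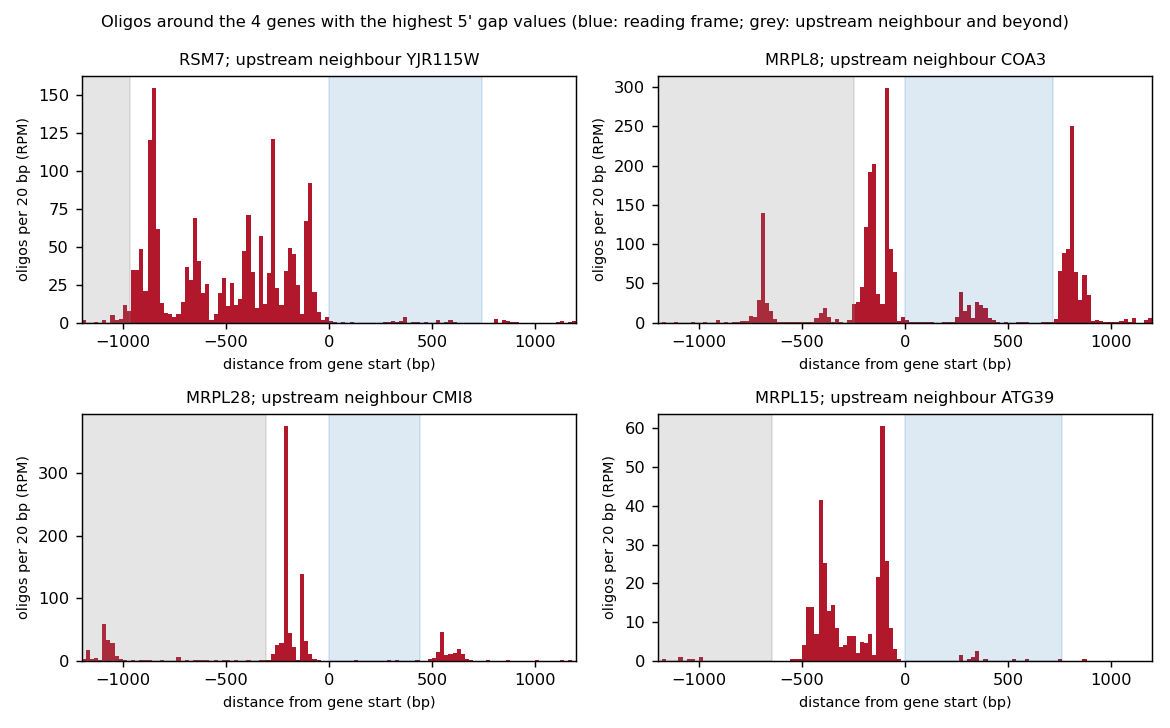
Oligos in 20 bp bins (RPM) against distance from the gene start for RSM7, MRPL8, MRPL28 and MRPL15; blue marks the reading frame and grey the upstream neighbour and beyond. RSM7 has breaks across its whole 966 bp gap, MRPL28 in a cluster within its 5′ gap, and MRPL8 in its 5′ gap, inside its reading frame and in its 3′ gap.

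MRPL15, also without a bacterial counterpart, had 302 RPM in a gap shared with ATG39, a gene for an autophagy receptor, with runs from 233 RPM in E8YXO9P to 343 RPM in FIDXMPL. MRPL37 had 287 RPM, the highest of the tandem gaps, with runs from 265 RPM in FFA0GWK to 313 RPM in E8YXO9P. Its upstream neighbour is REI1, a factor of cytosolic ribosome assembly. The 2 lie close in level but differ in layout: the side of the gap nearer to its start held 52.9% of the oligos for MRPL15 and 74.9% for MRPL37. MRPL11, the counterpart of the bacterial stalk protein L10, had 203 RPM (ACK1 upstream) with runs of 189 to 217 RPM. MRPL4, the counterpart of bacterial L29, had 190 RPM in a gap shared with LSM3, an RNA-processing gene. Its run values were 195, 218, 219 and 118 RPM, FIDXMPL standing below the other 3, and its hotspot extends over 1126 bp, so that most of that hotspot's 1039 oligos lay outside the 312 bp gap.

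At the low end stood MRPS35 with 7 oligos or 3.46 RPM (1.39 to 7.12) in a 155 bp gap after YGR164W. MRPL32 and MRPL25 followed with 15 oligos or 7.41 RPM each (4.15 to 12.2), then MRPL24 and MRPL1 with 20 oligos or 9.88 RPM each (6.03 to 15.3). The intervals of these 5 overlap, and their order was not tested. MRPL32 is the counterpart of bacterial L32 and MRPL1 that of L1. MRPL32 shares a divergent gap with the septin gene CDC10, and the other 4 gaps are tandem, with PEX8, a peroxisome gene, before MRPL25, GYL1 before MRPL24 and TMA64 before MRPL1.

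A total of 11 genes had no hotspot in the 5′ gap, 9 of the large subunit and 2 of the small, in 7 tandem and 4 divergent gaps. Beside the 5 lowest they were MRPL22 (10.4 RPM), MRPL17 (16.8 RPM), MRPL39 (22.2 RPM), MRPL6 (37.5 RPM), MRPL3 (49.4 RPM) and RSM26 (71.1 RPM). RSM26 and MRPL3 held more oligos than several genes with a hotspot. Their gaps are long, 899 and 857 bp, and the richest 100 bp held 27.8% of the oligos of RSM26 and 44.0% of those of MRPL3. MRPL6 lay nearest to the call, gaining a hotspot when either FE8RWPF or FIDXMPL was left out. MRPL4 lost its hotspot without FFA0GWK, although its gap held 190 RPM in the pooled list. Each hotspot is assigned to 1 gap by its summit, and whether the summit moved to another gap was not tested.

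Of the 33 genes with at least 100 oligos in the 5′ gap, the highest run was under 2 times the lowest in 29. The widest ratio was that of MRPL7, the counterpart of bacterial L5, with 50.6, 117.4, 75.9 and 126.2 RPM in E8YXO9P, FE8RWPF, FFA0GWK and FIDXMPL, a ratio of 2.50. For MRPL3 the runs gave 45.5, 34.0, 70.6 and 46.3 RPM (2.08-fold), and for MRPL23, the counterpart of bacterial L13, 141.6, 91.9, 123.6 and 187.2 RPM (2.04-fold). No run was highest in all of them: FFA0GWK led for MRPL3 and FIDXMPL for MRPL7 and MRPL23. Over the 33 genes FIDXMPL was the highest run in 15 and the lowest in 5. Neither these counts nor the 29 above were made over all genes, so they do not set these genes apart. Run medians over the 47 genes were 96.1, 91.9, 93.6 and 113.6 RPM in these genes, against 93.5, 90.2, 90.1 and 96.8 RPM in all genes, in the same run order.

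Within the 5′ gaps, breaks lay nearer to the gene start in these genes than in all genes, except where the gap was short. The median oligo of a gene lay 155.5 bp before its start in the 46 genes with at least 10 oligos (middle 50% of genes 131 to 190 bp) and 211.5 bp in 5176 of all genes (143 to 353 bp). The share of gap oligos between 50 and 250 bp before the start had a median of 89.98% in the mitochondrial ribosomal protein genes and 63.3% in all genes. Because their gaps were shorter, the comparison was repeated by gap length. In gaps of 1 to 250 bp the median oligo lay 140 bp before the start in 12 of these genes, farther than the 111 bp in 772 of all genes. In gaps longer than 250 and up to 500 bp it lay at 151.5 bp in these genes and 174.5 bp in all genes, and in gaps longer than 500 and up to 1000 bp at 239 and 328 bp. The share between 50 and 250 bp was 97.4% in these genes and 94.7% in all genes in the shortest gaps. In gaps longer than 250 and up to 500 bp the median share was 96.5% in 20 of these genes and 89.5% in 2068 of all genes, and in gaps longer than 500 and up to 1000 bp it was 47.03% in 12 of them and 26.7% in 1597 of all genes. The share was the higher in these genes in each length class, while the distance was shorter only in gaps longer than 250 bp.

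**Figure D4:**
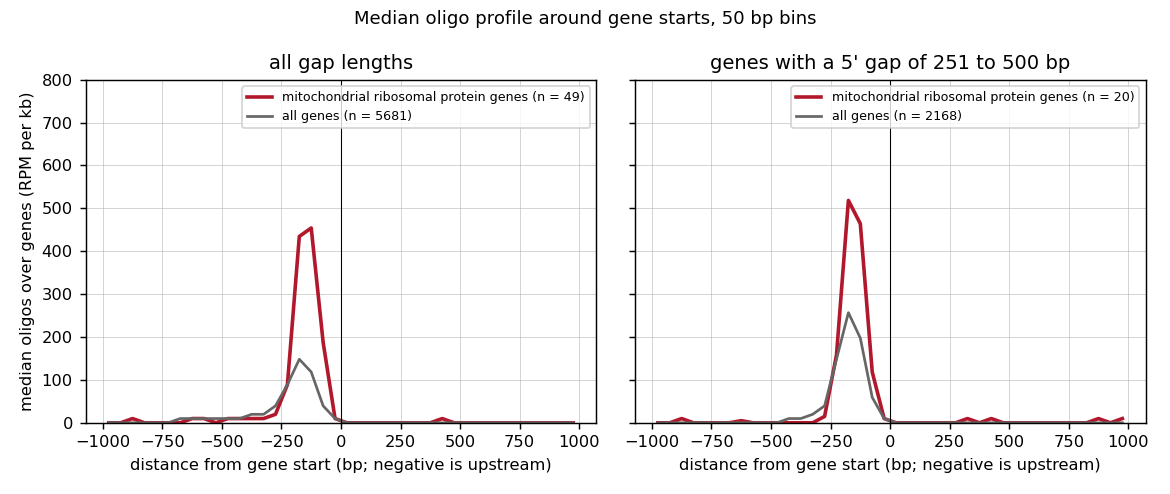
Median oligo density over genes (RPM per kb, 50 bp bins) against distance from the gene start, for mitochondrial ribosomal protein genes (red) and all genes (grey), over all gap lengths (left) and for genes with a 5′ gap longer than 250 and up to 500 bp (right). Between 200 and 50 bp before the start the red line runs above the grey, and both are near 0 inside the genes.

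The median density between 200 and 150 bp before the start was 435 RPM per kb in the mitochondrial ribosomal protein genes and 148 RPM per kb in all genes. Between 150 and 100 bp it was 454 and 119 RPM per kb, and between 100 and 50 bp 188 and 39.5 RPM per kb. In genes with gaps longer than 250 and up to 500 bp the medians between 200 and 150 bp were 519 RPM per kb in these genes and 257 RPM per kb in all genes of that class. The difference is one of medians. The mean of the bin between 200 and 150 bp was 695 RPM per kb in these genes and 525 RPM per kb in all genes, a smaller difference than between the medians.

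A fixed window from 50 to 250 bp before the start, chosen after this profile was seen, needs no gap and takes in all 49 genes. Its median was 68.6 RPM in the mitochondrial ribosomal protein genes (middle 50% of genes 23.2 to 133.3) and 35.1 RPM in all 5684 genes (8.395 to 100.2). Of the 49 genes 35 (71.4%) lay above the median of all genes, where 50% of all genes lie by construction, and 17 (34.7%) lay at or above 100.2 RPM, as did 25.1% of all genes. By run the medians were 70.8, 68.1, 60.0 and 86.3 RPM in these genes, against 32.9, 34.0, 33.6 and 35.8 RPM in all genes, in E8YXO9P, FE8RWPF, FFA0GWK and FIDXMPL. In each run 34 to 36 of the 49 lay above that run's median of all genes. In gaps of 1 to 250 bp the window held a median of 60.7 RPM in 13 of these genes and 41.0 RPM in 968 of all genes, and in gaps longer than 250 and up to 500 bp it held 95.6 and 50.4 RPM. In divergent gaps the medians were 90.6 and 47.4 RPM, and in tandem gaps 43.0 and 25.7 RPM. For the small subunit 16 of 19 genes lay above the median of all genes and for the large subunit 19 of 30, with medians of 83.5 and 56.1 RPM.

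The 36 genes with a 5′ hotspot had 37 in all, since MRPL7 had 2. Taking the strongest of each gene, they had a median width of 205 bp, from 100 bp at RSM10 to 1232 bp at MRPL8, and a median of 126 RPM; over all 3626 hotspots the medians were 211 bp and 119 RPM. The summit lay a median of 153.5 bp before the gene start in these 36 genes and 215 bp in the 4128 of all genes with a 5′ hotspot. It lay between 50 and 250 bp in 31 of the 36 (86.1%), against 54.8% of all genes with one. By gap length these shares were 10 of 10 and 88.7% in gaps up to 250 bp, 15 of 15 and 75.2% in gaps from there up to 500 bp, and 5 of 9 and 32.1% in gaps from there up to 1000 bp. The 5 of the 36 summits outside that range, at RSM7, MRPS18, MRPL27, RSM10 and MRPL7, lay 362 to 864 bp away, all in divergent gaps. Of the 26 divergent gaps, 18 held most of their oligos on the side of the mitochondrial ribosomal protein gene, and the share on that side ran from 25.7% at MRPL4 to 87.9%, with a median of 53.7%. Each divergent gap counts once from either side, so in all genes the share of gaps with most oligos on the gene's own side was 49.2% and the median 49.7%. The middle 50% ran from 43.6% to 66.6% in the 26 gaps and from 27.8% to 71.6% in all divergent gaps. This difference was not tested. Oligos of the 5′ gaps measured 30.7 ± 6.22 nt and those of all genes' 5′ gaps 30.6 ± 6.22 nt (mean and SD over 15938 and 1603238 reads). The top strand carried 46.7% of them in these genes and 49.8% in all genes, and from 28.6% to 75.8% in single genes with at least 100 oligos.

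Inside the reading frames oligos were sparse. The median was 4.97 RPM per kb in the mitochondrial ribosomal protein genes and 4.93 RPM per kb in all genes. Without MRPL8 the ORFs held 0 to 31 oligos each. MRPS17, the counterpart of bacterial S17, had 0, which allows up to 1.48 RPM (3 oligos of the list). MRPL8 stood apart with 373 oligos or 257 RPM per kb, and its runs gave 235, 191, 161 and 162 RPM over the ORF of 717 bp. With the ORF cut into 3 equal parts, 338 of the 373 (90.6%) lay in the middle part, so these breaks were not a fringe of either gap. Over the other 48 genes the parts held 34.9%, 33.0% and 32.1% of ORF oligos from start to end, against 32.8%, 27.8% and 39.4% in all genes. The next highest ORFs were those of MRPS8 (28.5 RPM per kb), MRPL37 (28.0), MRPL49 (21.3) and RSM7 (20.6), each about an order of magnitude below MRPL8. In MRPL37 12 of 18 ORF oligos lay in the part next to the start, beside its 5′ gap.

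**Figure D5:**
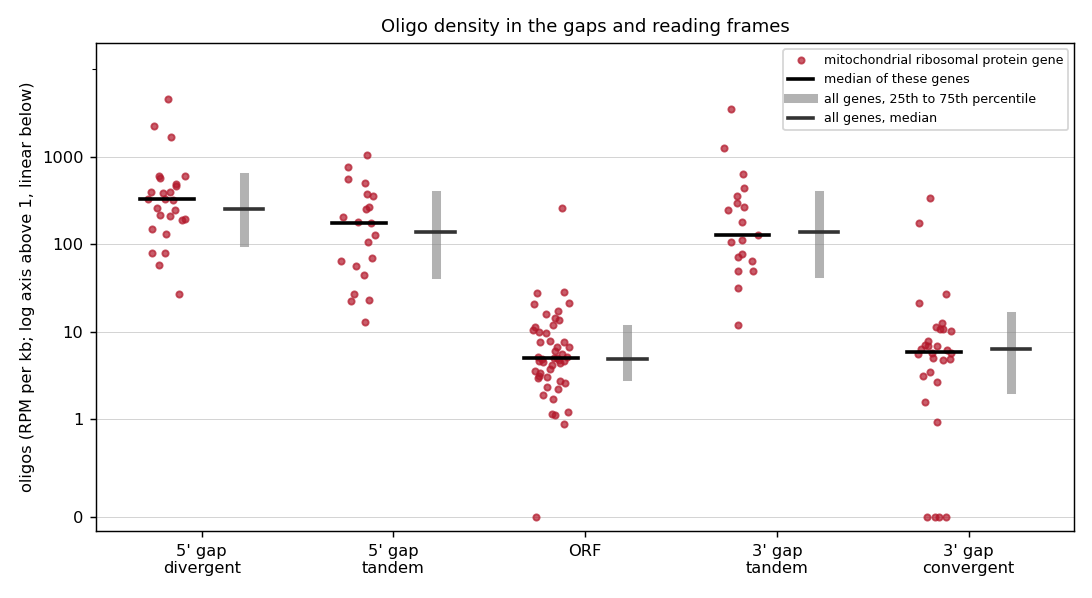
Oligo density (RPM per kb, log axis above 1) in the 5′ gap, ORF and 3′ gap of each mitochondrial ribosomal protein gene (points), by the orientation of the neighbour, with their median (black bar) beside the median and middle 50% of all genes (grey). Both kinds of 5′ gap and the tandem 3′ gaps have medians well above those of ORFs and convergent 3′ gaps. The highest ORF point is MRPL8.

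After the genes, levels went with the orientation of the neighbour. Of the 49 genes 30 end facing the end of the next gene, and these convergent 3′ gaps had a median of 1.98 RPM in the mitochondrial ribosomal protein genes and 1.48 RPM in all genes. The other 19 are followed by the start of the next gene, and these tandem 3′ gaps, which hold the neighbour's promoter, had medians of 63.2 and 62.7 RPM. Hotspots were assigned to 2 of the 30 convergent gaps, against 8.86% of all convergent gaps, and to 13 of the 19 tandem gaps, against 65.7%. In all, 15 of 49 3′ gaps had a hotspot, against 36.3% of all 3′ gaps. With both orientations together the median was 2.96 RPM in these genes and 8.395 RPM in all genes. Convergent ends made up 30 of the 49 3′ gaps here and 2868 of 5540 in all genes. The 3′ gaps of RSM7, RSM26, RSM28 and MRPL19 held 0 oligos, which allows up to 1.48 RPM each.

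The highest 3′ gap was again that of MRPL8, with 1408 oligos or 695 RPM (660 to 733) before DLS1, a chromatin remodelling gene, and runs of 723, 720, 648 and 698 RPM. RSM25, a small-subunit gene without a bacterial counterpart, had 912 oligos or 450 RPM (422 to 481) before LYS12, a gene of lysine synthesis. Its runs gave 382, 390, 433 and 604 RPM, FIDXMPL standing above the other 3, and the gap exceeded the 108 RPM of its own 5′ gap. MRPL49, the counterpart of bacterial L21, had 176 RPM before BCK1, a kinase gene of the cell wall pathway, and MRPL28 had 132 RPM before STP1, a transcription factor gene. The convergent gaps with a hotspot were those of MRPS8, the counterpart of bacterial S8, with 160 RPM facing YMR158C-A, and of MRPL37 with 93.8 RPM facing the succinate dehydrogenase assembly gene SDH8.

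In 8 of the 47 genes with both gaps the 3′ gap held more oligos than the 5′ gap, against 21.4% of all genes; 7 of these 3′ gaps were tandem and the exception was MRPS8. One gap serves 2 genes of the group: the 5′ gap of MRPS12, the counterpart of the decoding-site protein S12 of bacteria, is the 3′ gap of RSM19, the counterpart of S19, and held 166 oligos or 82.0 RPM, with runs of 91.0, 85.1, 93.6 and 56.8 RPM. RSM19's own 5′ gap, shared with DBP6, a gene of cytosolic ribosome assembly, held 153 RPM. The 3′ gap of MRPL44 is the 5′ gap of MRE11, whose protein is needed to form and process meiotic breaks, and held 39.5 RPM.

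Other genes of mitochondrial translation were counted in the same way. A list of further genes tied to the mitochondrial ribosome under other symbols, CBP6 among them, gave 21 genes with a 5′ gap. Of these 18 had a hotspot (85.7%, against 73.6% of all genes with a 5′ gap) and the median level was 123 RPM. Divergent gaps made up 66.7% of these 5′ gaps and 52.1% of those of all genes. The highest were MHR1 (1025 RPM, gap shared with HDA2) and IMG1 (881 RPM, a tandem gap after BUD23). Of 27 genes for factors of mitochondrial translation 19 had a hotspot (70.4%) with a median of 68.2 RPM. Highest was the gap shared by OXA1 and PET122, with 282 RPM. No hotspot was assigned to that gap, so both genes count as without one. Of 12 mitochondrial aminoacyl-tRNA synthetase genes 8 had a hotspot (66.7%), with a median of 60.2 RPM and MSK1 highest at 625 RPM. In the window from 50 to 250 bp before the start the median was 93.3 RPM in the 23 genes of the ribosome list. The window median was 60.2 RPM in the factors and 37.3 RPM in the synthetases. For the 132 cytosolic ribosomal protein genes the window held a median of 13.6 RPM and 33 genes lay above the median of all genes. Of the 132, 76 had a 5′ hotspot (57.6%), and their whole 5′ gaps, with a median length of 634 bp, held a median of 58.0 RPM. The window medians of mitochondrial and cytosolic ribosomal protein genes, 68.6 and 13.6 RPM, lay on opposite sides of the 35.1 RPM of all genes. Over whole 5′ gaps the medians were 97.3 and 58.0 RPM, a smaller contrast, and neither difference was tested.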

How the data were processed

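Reads of all 4 datasets are pooled in both deposited files. The positions and strands in the read list are the authors' mapping, per the file headers and columns, and the deposited score of each read was not used. The second file, which the authors call a curated map, holds raw hit counts per position with strands combined, per the file headers, and served as an alternative. The authors' file names the S288C map. For the aligner and build: not given in the sources used here. Spo11-oligo purification and linker ligation are per the labels' protocols.

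Values were computed with Python 3.11.15, numpy 2.4.6, pandas 2.3.3 and scipy 1.17.1 (plots: matplotlib 3.10.9). The cut was the listed start on the top strand and the listed end on the bottom strand. Runs are the first 7 characters of the read name. Hotspots were called on 16 chromosomes from 5′ end density under a 201 bp Hann kernel. Runs of positions reaching 2.3 times the mean (12 Mb genome) were joined across 200 bp, then kept if they spanned 25 bp and held 10 RPM. Each was assigned to the gap holding its summit, or the nearest. Intervals are exact Poisson (levels) or Wilson (shares), and a count of 0 is read as up to 3. The counting and hotspot steps were tested on simulated data. No columns belonging to other samples were found.

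Gene names, bounds and systematic names come from a RefSeq table (assembly R64), and strand from the locus tags; the table's own coordinates are not printed. Its register with the map was checked in 228 windows of 50 kb: the best shift had a median of -5 bp and was within 100 bp in 227, and in all 43 windows that hold these genes it lay between -60 and 100 bp.

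The genes and lists were chosen with earlier results of these data known. Named genes are the 8 highest and 5 lowest 5′ gaps, all without a hotspot, the 5 highest ORFs per kb and 3′ gaps, the 3 widest run ratios at 100 or more oligos, and genes sharing a gap. Other genes were named after their values were seen (MRPL44 and MRE11, MRPS17, RSM28, MRPL19 and MRPL51, the 5 distant summits, MHR1, IMG1, OXA1 and PET122, MSK1). Promoter sequences and motifs were not analysed here. Alternatives were the curated map, each position counted once, single strands and each run left out. Others were shifts of the gene table, gaps limited to 500 bp, and other hotspot rules. All of them kept the 200 bp joining distance, on which hotspot widths and ranks can depend. Chosen after seeing the data were the window from 50 to 250 bp, the shift of the table by each 50 kb window's own register, and calls by any hotspot overlapping a gap.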

Additional observations from a re-analysis of the deposited data

Results flagged for a closer look

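In the 5′ gap of MRPL3 5 hits of the curated map fall on positions without any listed read. The gap holds 104 hits in the map and 100 in the list. It was picked out because these hits lie outside the list on which the levels rest and exceed the 3 counts that a count of 0 allows.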

How the results depend on the processing

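Hotspot counts stayed at 35 to 41 of 47 genes under all settings run, 35 to 37 with 1 run left out. The share over all genes moved with the settings. With each position and strand counted once it was 84.7%, beside 41 of the 47 (87.2%). At a threshold of 3 times the mean it was 69.0%, beside 35 (74.5%). With 1 run left out it was 73.6% to 74.2%. Counting each position and strand once raised the median 5′ gap level to 120.3 RPM (129.99 in all genes), the ORF median to 17.8 RPM per kb, the 3′ gap median to 9.70 RPM and the window median to 95.1 RPM (60.1 in all genes), and lowered the share of oligos in 5′ gaps to 68.7%. A shift of the gene table by 100 bp left and right gave 78.0 and 74.1 RPM for the 5′ gap, 11.3 and 9.72 RPM per kb for the ORF, 66.1% and 63.7% for the share, and 36.5 and 32.6 RPM for the window (19.8 and 19.3 in all genes). The share was 70.5% from the top strand, 77.4% from the bottom strand and 71.2% with gaps limited to 500 bp. The 5′ gap median was above that of all genes in the pooled list, but below it with positions counted once, from the top strand (88.1 and 92.1 RPM) and with a shift of 100 bp right (74.1 and 75.6 RPM), and level without FIDXMPL (89.7 RPM). With 1 run left out the ranges were 89.7 to 103.7 RPM (5′ gap), 4.42 to 6.23 RPM per kb (ORF), 3.23 to 4.17 RPM (3′ gap), 73.7% to 74.5% (share) and 66.8 to 74.7 RPM (window). Levels with positions counted once are on another scale, with at most 1 count per position and strand and RPM taken over fewer counts. MRPL8 went to 396 RPM under this setting, MRPL28 to 264 RPM, RSM7 to 1040 RPM, and MRPL37 down. The other 10 that moved, all without a hotspot, went up. In all, 14 of 19 named 5′ gap levels changed over 1.5 times under it. A shift of 100 bp did so for MRPL8, MRPL37, MRPL25 and MRPS35 (left) and MRPL8, MRPL28, MRPL6, MRPL39 and MRPS35 (right), the gap limit for RSM7, RSM26 and MRPL3, the top strand for MRPL24 and MRPL25, the bottom strand for MRPL25, and a 20 bp shift right and the shift by each window's own register for MRPS35, which has 7 oligos. No run left out did so. The gap limit gave no separate hotspot assignment. No paired analysis was possible because both files pool all datasets and no column belongs to 1 sample.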
